A study of Homo sapiens with 6 samples.

Results

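The guidance genes described here are the ephrins, semaphorins, SLITs and netrins and the Eph, plexin, neuropilin, ROBO and UNC5 receptors that read them. The rule that picked them uses gene symbols and no measured value, although the set was proposed with earlier results of these data known. They number 68 of the 54308 genes in the expression table. The cells were 143B, a human osteosarcoma line grown from a bone tumour, and RNA sequencing compared 3 libraries of vector control cells (VC), transfected with the vector plasmid, with 3 libraries of cells in which CNTNAP4, a membrane protein of the neurexin superfamily, had been deleted with CRISPR/Cas9 (KO). The labels give 48 h of transfection for every library, while the study's methods describe a longer incubation, sorting of single cells and the expansion of a pair of KO colonies. Which colony each KO library came from is not given in the sources used here, so a difference between the groups may belong to the deletion or to the clones, and these cannot be told apart. The labels number the libraries as replicates without calling them separate cultures. The study calls them biological replicates, 3 in each group, and its methods mention 3 independent RNA samples. The p-values measure only the spread between these samples.

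Ephrins are bound to the cell surface and activate Eph receptor tyrosine kinases on neighbouring cells, with signals that can run in both directions. Semaphorins act through plexins, and most of the secreted class 3 semaphorins need a neuropilin as a co-receptor. SLITs bind ROBO receptors, and netrins attract growing axons through DCC and repel them through UNC5 receptors. The same ligands and receptors also steer migrating tumour cells, sprouting vessels and, for several semaphorins and ephrins, the exchange between osteoblasts and osteoclasts.

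CNTNAP4 itself was listed with a value only in VC replicate 3, where its log2 signal was -7.18, while the 5 remaining libraries were empty for it, so the table could not show the deletion at the RNA level. Between 20333 and 21041 genes had a value in a library, and an empty cell stands for the rest. Of 11 mesenchymal and osteoblast markers, 9 were tested, 5 rose and 2 fell (77.8% of those tested, beside 32.9% of all genes). Vimentin (VIM) had a mean log2 signal of 10.4 in VC and 10.8 in KO, the matrix protein SPARC rose from 6.5 to 6.87 and SPP1, osteopontin, from 2.47 to 4.02, while TWIST1 fell from 3.15 to 2.47 and COL1A2 was low and fell from -4.81 to -5.62. IBSP had no value in any library and BGLAP had values only in 2 KO libraries. Among epithelial markers KRT8, with means of 6.61 and 7.20, and KRT18, with 9.01 and 8.75, were high, EPCAM fell from 1.71 to 1.04 and CLDN4 from -2.66 to -4.55, KRT19 had means of -4.46 and -3.45, and CDH1 had 1 value. The number of reads behind a signal is unknown.

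Genes with 2 or more values per group entered the test, and a gene was called when limma's p-value, adjusted by the Benjamini-Hochberg method over all 19306 genes tested, was under 0.05. By this rule 32 of the 63 guidance genes tested were called (50.8%), beside 32.9% of all genes. In KO cells 15 guidance genes rose (23.8%, beside 13.1% of all genes) and 17 fell (27.0%, beside 19.8%). Of the 60 guidance genes with 6 values, 37 had groups that did not overlap (61.7%), beside 59.3% of all genes with 6 values. Their median log2 fold change was -0.038, and that of all genes was -0.13. Leaving out 1 library left between 6 (without VC replicate 3) and 31 (without KO replicate 1) of them called. These were 9.68% and 50.8% of the guidance genes tested in those fits, beside 6.57% and 47.0% of all genes.

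Ligands and receptors were then counted apart. Of 34 ligand genes tested, 6 rose (17.6%) and 12 fell (35.3%), with a median log2 fold change of -0.13. Of 29 receptor genes tested, 9 rose (31.0%) and 5 fell (17.2%), with a median of 0.17. Over all genes 13.1% rose and 19.8% fell. The difference between ligands and receptors was not tested. Level ran alongside: the 22 guidance genes with a mean log2 signal at or above that of the median gene (1.02) held 10 that rose and 5 that fell, and the 41 below it held 5 that rose and 12 that fell. In a fit of the upper 50% of genes alone, 23.4% of all genes rose and 35.6% fell. In that fit 54.5% of the guidance genes rose and 22.7% fell.

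**Figure D1:**
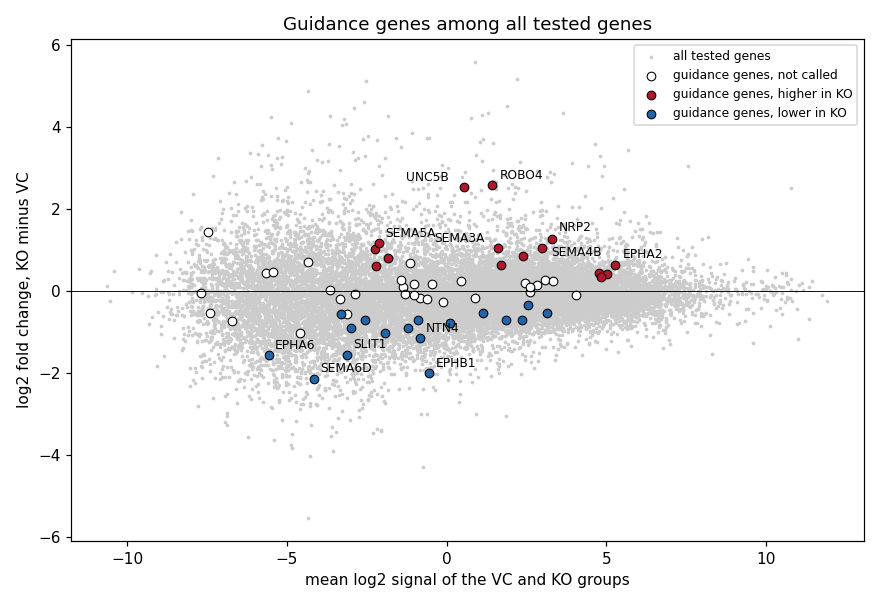
Mean log2 signal of both groups (x axis) against the log2 fold change, KO minus VC (y axis), for all 19306 tested genes in grey and the 63 tested guidance genes as circles, red where the adjusted p was under 0.05 and KO was higher, blue where KO was lower and white where not called. ROBO4 (2.57) and UNC5B (2.54) lie highest among the guidance genes, and SEMA6D (-2.14) and EPHB1 (-2.0) lowest.

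Size set a small group of genes apart. At least a doubling was seen in 7 of the 15 that rose and at least a halving in 6 of the 17 that fell. Receptors led the increases, with ROBO4, UNC5B and NRP2 at the top, while SEMA6D, EPHB1, EPHA6 and SLIT1 led the decreases on the log2 scale. With 1 added to the linear signal, the differences were -0.81 for EPHB1, -0.17 for SLIT1, -0.12 for SEMA6D and -0.034 for EPHA6. Among genes that rose they were 1.848 for ROBO4, 1.516 for UNC5B, 1.145 for NRP2, 0.218 for SEMA5A and 0.181 for PLXNB3. Calls kept in all 6 fits that left out 1 library were those of ROBO4, NRP2, SEMA5A, SEMA3A and NTN4. A call kept in only 1 of these fits was seen for 6 of the 15 that rose and 7 of the 17 that fell. The 31 guidance genes not called included 5 whose groups did not overlap. These were PLXNA2, PLXNB2, ROBO1 and SEMA4G with higher and UNC5A with lower values in KO. Over all genes with 6 values, 59.3% had groups that did not overlap, and the uncalled part of these was not counted.

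The stretches of DNA just before the annotated starts of the genes with the largest changes were read. The starts used in these cells were not measured. A RefSeq promoter (GRCh38.p14) was matched for 58 of the 68 genes, and UNC5B was not among them. Printed are the 250 bases before the start for the 2 largest decreases and the 2 largest increases with an entry, each 5′ to 3′ on the gene's own strand. Capitals mark the letters of 2 motifs that were searched on both strands, the SP1 box GGGCGG, which reads CCGCCC on the other strand, and the E-box CACGTG. SEMA6D lies on the plus strand at chr15:47183839-47184088, EPHB1 on the plus strand at chr3:134795010-134795259, ROBO4 on the minus strand at chr11:124897866-124898115 and NRP2 on the plus strand at chr2:205682251-205682500.
SEMA6D: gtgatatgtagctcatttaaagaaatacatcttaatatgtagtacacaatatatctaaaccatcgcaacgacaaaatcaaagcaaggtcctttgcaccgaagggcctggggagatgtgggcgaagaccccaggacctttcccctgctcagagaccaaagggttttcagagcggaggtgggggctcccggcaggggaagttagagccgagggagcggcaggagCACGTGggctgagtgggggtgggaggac
EPHB1: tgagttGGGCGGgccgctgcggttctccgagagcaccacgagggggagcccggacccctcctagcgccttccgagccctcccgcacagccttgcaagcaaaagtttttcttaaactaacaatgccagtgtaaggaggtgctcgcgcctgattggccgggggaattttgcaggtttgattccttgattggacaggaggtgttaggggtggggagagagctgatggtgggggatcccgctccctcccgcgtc
ROBO4: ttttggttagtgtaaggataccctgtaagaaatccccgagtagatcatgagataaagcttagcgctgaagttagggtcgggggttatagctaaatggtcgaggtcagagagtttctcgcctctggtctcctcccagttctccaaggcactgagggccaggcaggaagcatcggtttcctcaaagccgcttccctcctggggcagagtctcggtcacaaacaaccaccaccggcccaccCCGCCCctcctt
NRP2: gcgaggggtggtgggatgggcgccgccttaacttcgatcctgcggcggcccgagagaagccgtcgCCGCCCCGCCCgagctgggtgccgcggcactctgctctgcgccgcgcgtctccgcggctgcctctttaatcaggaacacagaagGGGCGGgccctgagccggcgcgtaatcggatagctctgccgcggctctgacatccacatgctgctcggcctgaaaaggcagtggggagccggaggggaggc

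The SP1 box began 244 bases before the start of EPHB1, 12 bases before that of ROBO4, and 185, 180 and 101 bases before that of NRP2, where the first pair overlaps. It was found in 10 of the 12 matched promoters of genes that rose and in 10 of the 14 of genes that fell, beside 62.9% of the 13441 promoters of tested genes. An E-box began 28 bases before the start of SEMA6D. E-boxes were in 2 of the 14 promoters of genes that fell (SEMA4D and SEMA6D) and in 0 of the 12 of genes that rose, beside 8.53% of tested promoters. Of 5 other motifs, AP-1 (TGANTCA) was in the promoter of PLXNC1 alone among those called, CRE (TGACGTCA) in that of EPHA2, C/EBP-ATF (TGATGNAA) in that of SEMA3C, TEAD (GGAATG) in those of EPHA2 and PLXNB3, and NF-kB (GGNNTTTCC) in that of SEMA7A. Of all tested promoters, 4.66% held AP-1, 2.57% CRE, 1.79% C/EBP-ATF, 9.69% TEAD and 5.96% NF-kB.

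ROBO receptors moved in 1 direction where they moved at all. ROBO4, known best from endothelium, where it steadies vessels, had log2 signals of 0.26, 0.019 and 0.14 in VC and 2.25, 3.17 and 2.72 in KO. Every KO library lay above every VC library, by a margin far wider than the spread within either group. The log2 fold change was 2.57 (95% interval 1.95 to 3.19), a 5.94-fold difference, with an adjusted p of 0.0079. The highest adjusted p with 1 library left out was 0.041, without VC replicate 3, and 10.6% and 6.37% of its exonic bases face 2 antisense transcripts that are not in the table.

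ROBO3, which lets commissural axons cross the midline and lies next to ROBO4 on chromosome 11, had signals of 2.13, 1.77 and 1.99 in VC and 2.54, 2.98 and 2.89 in KO. It rose by 0.84 on the log2 scale (interval 0.44 to 1.23, adjusted p = 0.019), a call kept in 2 of the 6 fits that left out 1 library. ROBO1, the main SLIT receptor outside the nervous system, was the most abundant, with 3.18, 3.18 and 3.28 in VC and 3.57, 3.40 and 3.40 in KO. Its groups did not overlap, but the difference of 0.24 (interval 0.035 to 0.45) had an adjusted p of 0.072, or 0.027 with each library centred on its median. ROBO2 had means of -3.67 in VC and -3.64 in KO, with a difference of 0.026 (interval -0.62 to 0.67).

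Endothelial markers were read beside ROBO4. Their summed linear signal ran from 19.9 to 22.5 in VC and from 39.3 to 43.9 in KO, and nearly all of it was TIE1, an endothelial receptor kinase, which rose from 4.30 ± 0.078 to 5.29 ± 0.078 on the log2 scale (SD, n = 3). Without TIE1 the sum ran from 1.35 to 2.06 in VC and from 2.35 to 2.94 in KO. TIE1 was the 1 marker called of 7 tested (14.3%, beside 32.9% of all genes). TEK, with means of -6.17 in VC and -4.58 in KO (adjusted p = 0.067), and EGFL7, with 0.59 and 1.15 (adjusted p = 0.077), had separate groups with higher values in KO, and ESAM, with -2.30 and -2.01, overlapped. The defining markers PECAM1, with means of -5.50 and -4.86, CDH5, with -7.86 in both groups, and VWF, with -6.76 and -7.07, were near the bottom of the range, and CLDN5 had 1 value, in KO.

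Of 8 neuronal markers, 2 rose and 1 fell (37.5% called, beside 32.9% of all genes). Their summed linear signal, from 43.1 to 49.2 in VC and from 44.7 to 46.1 in KO, was nearly all TUBB3, and without it the sums ran from 1.36 to 1.64 and from 1.41 to 1.84. MAP2 rose by 1.14 and GAP43 by 0.72, RBFOX3 fell by 2.01, and NEFL differed by -1.92 (adjusted p = 0.051). Immune markers summed to at most 0.262 in any library. Of the 3 tested CSF1R was called (33.3%), rising by 2.16 from a mean of -5.06 to -2.90. The part of these markers in the rise of ROBO4 was not tested.

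SLIT ligands ran the other way. SLIT1 had signals of -2.20, -2.79 and -2.02 in VC and -3.37, -4.0 and -4.29 in KO, and it fell by 1.55 on the log2 scale (interval -2.35 to -0.76, adjusted p = 0.023). SLIT3 had -2.39, -2.81 and -2.45 in VC and -3.51, -3.34 and -3.52 in KO, a fall of 0.91 (interval -1.25 to -0.56, adjusted p = 0.013). The VC and KO values of both genes were separate, and leaving out 1 library kept the call of SLIT3 in 5 fits of 6 and that of SLIT1 in 2. SLIT2 was the most abundant of the 3 and differed by -0.093 (interval -0.93 to 0.74). Its KO values of -0.38, -1.63 and -1.20 enclosed all VC values, which were -0.83, -1.15 and -0.96.

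**Figure D2:**
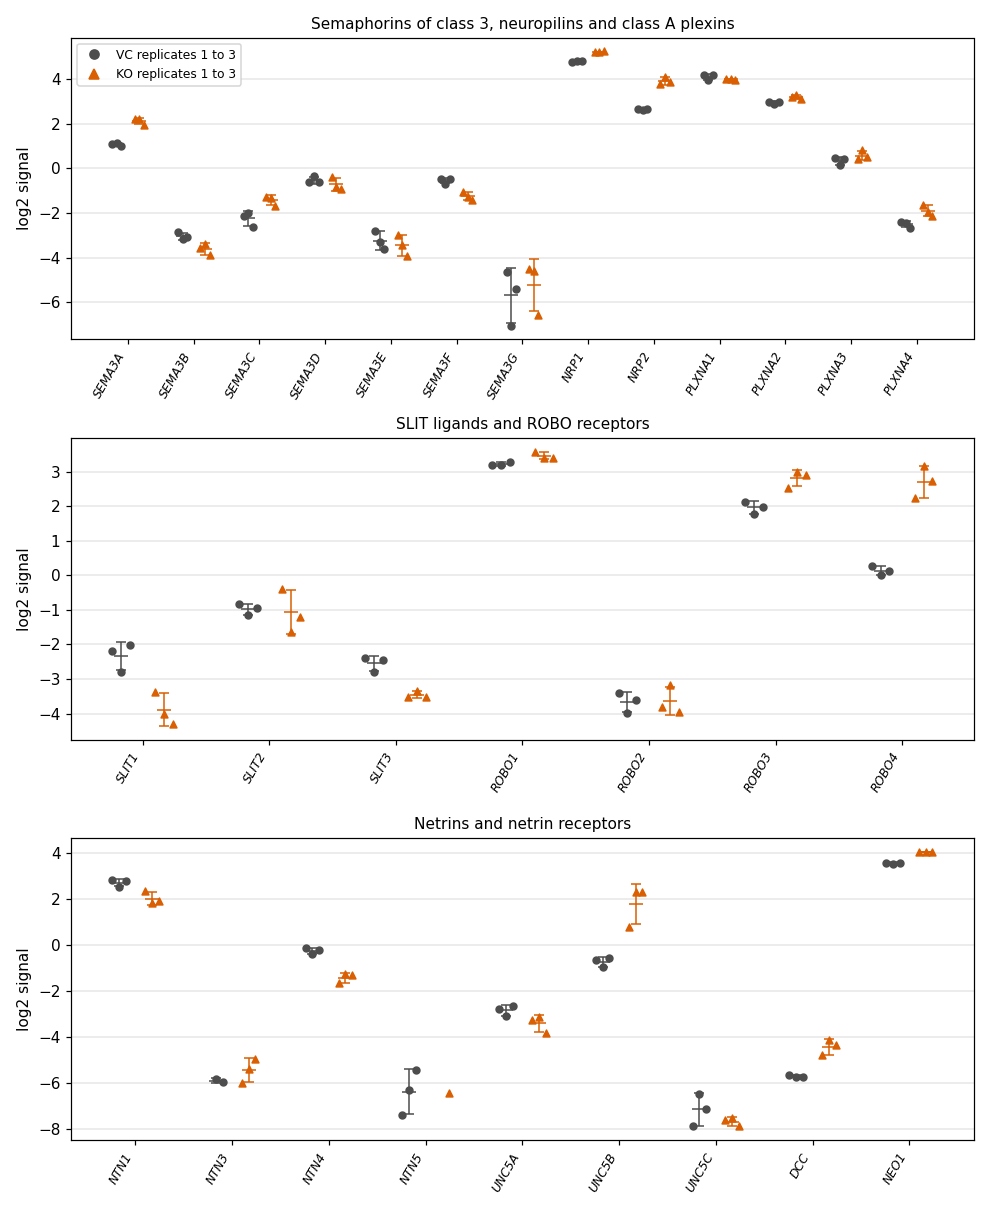
Log2 signal of each library (y axis) for class 3 semaphorins with neuropilins and class A plexins (top), SLITs and ROBOs (middle) and netrins with their receptors (bottom), with VC replicates as grey circles, KO replicates as orange triangles, and bars for the group mean ± SD where a group has at least 2 values. The KO triangles of ROBO4 (2.25 to 3.17) and UNC5B (0.79 to 2.32) stand clear of their VC circles, and those of SLIT1, SLIT3, NTN1 and NTN4 lie below theirs.

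Netrins fell as a ligand family where they were called. NTN4, a netrin of basement membranes that binds laminin, had -0.14, -0.40 and -0.23 in VC and -1.67, -1.28 and -1.31 in KO. Its KO values all lay below the VC values with a wide gap, and it fell by 1.16 (interval -1.51 to -0.81, adjusted p = 0.0096), a call kept in all 6 fits that left out 1 library. NTN1, the founding guidance netrin and ligand of DCC and the UNC5 receptors, was the most abundant, with 2.83, 2.54 and 2.80 in VC and 2.34, 1.81 and 1.90 in KO. It fell by 0.71 (interval -1.14 to -0.27, adjusted p = 0.033), and without VC replicate 3 the adjusted p was 0.099. NTN3 had 5 values, between -5.99 and -4.96, and differed by 0.44 (interval -0.44 to 1.33), while NTN5 had 3 values in VC and 1 in KO and was not tested.

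Among UNC5 receptors only UNC5B was called. UNC5B, a netrin receptor of tip cells in sprouting vessels and a dependence receptor, had -0.64, -0.98 and -0.58 in VC and 0.79, 2.29 and 2.32 in KO. KO replicate 1 lay well below the other KO libraries but above every VC library. The rise was 2.54 on the log2 scale, 5.80-fold, with a wide interval of 1.40 to 3.67 and an adjusted p of 0.017. Leaving out 1 library kept the call in 2 fits of 6, and the highest adjusted p was 0.058, without VC replicate 3. UNC5A differed by -0.56 (interval -1.13 to 0.010) and UNC5C by -0.53 (interval -1.45 to 0.39), and both were low, at means of -2.85 and -7.15 in VC.

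Both neuropilins rose. NRP1, co-receptor of class 3 semaphorins and of VEGF, was one of the most abundant guidance genes, with 4.78, 4.82 and 4.81 in VC and 5.21, 5.19 and 5.23 in KO. Replicates lay close together in both groups (SD 0.021 in each), and the rise was 0.40 (interval 0.25 to 0.56, adjusted p = 0.013). NRP2, which pairs with SEMA3F and with VEGF-C, had 2.64, 2.62 and 2.68 in VC and 3.78, 4.10 and 3.86 in KO. It rose by 1.27, or 2.41-fold (interval 1.0 to 1.53, adjusted p = 0.0061), and the highest adjusted p with 1 library left out was 0.037. NRP1 kept its call in 3 of these 6 fits.

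Class 3 semaphorins, the secreted ligands of neuropilins, split by gene. SEMA3A, a repellent that acts through NRP1 and class A plexins and that also protects bone, was the most abundant, with 1.10, 1.15 and 1.0 in VC and 2.20, 2.22 and 1.95 in KO. It rose by 1.04 (interval 0.78 to 1.30, adjusted p = 0.0079), with groups that did not overlap, and kept its call in all 6 fits that left out 1 library. SEMA3C rose by 0.80 (interval 0.28 to 1.33, adjusted p = 0.038) from a mean of -2.23 ± 0.33 to -1.43 ± 0.22 (SD, n = 3), and leaving out any 1 library ended its call, with adjusted p-values up to 0.097.

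SEMA3F and SEMA3B, which lie on chromosome 3 and are known as tumour suppressors, fell. SEMA3F had -0.48, -0.68 and -0.46 in VC and -1.05, -1.27 and -1.41 in KO, a fall of 0.70 (interval -1.02 to -0.38, adjusted p = 0.018). SEMA3B fell by 0.56 (interval -0.97 to -0.16, adjusted p = 0.049), from -3.03 ± 0.16 to -3.60 ± 0.26 (SD, n = 3), and its adjusted p was 0.064 with each library centred on its median and 0.14 with 1 added to the linear signal. The remaining 3 genes of the class overlapped between groups, with differences of -0.19 for SEMA3D, -0.20 for SEMA3E and 0.46 for SEMA3G, and the interval of SEMA3G reached from -1.67 to 2.59.

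Transmembrane semaphorins of classes 4 to 6 also moved both ways. SEMA5A, which binds PLXNB3, had -2.61, -2.75 and -2.77 in VC and -1.47, -1.56 and -1.63 in KO. It rose by 1.16 with the smallest adjusted p of the guidance genes, 0.0057 (interval 0.95 to 1.37). SEMA4B had 2.50, 2.30 and 2.60 in VC and 3.01, 3.85 and 3.65 in KO, where KO replicate 1 was nearest to VC. It rose by 1.03 (interval 0.43 to 1.63, adjusted p = 0.030), and the call held in 1 of 6 fits with 1 library left out.

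SEMA6D, a ligand and receptor that works with class A plexins, fell most of all guidance genes on the log2 scale, with -2.99, -3.29 and -2.99 in VC and -4.65, -6.42 and -4.60 in KO. KO replicate 2 lay far below the other KO libraries, and the interval of the fall of 2.14 was wide, from -3.47 to -0.81 (adjusted p = 0.034). The call of SEMA6D held in 2 of the 6 fits with 1 library left out. With 1 added to the linear signal its difference was -0.12 (adjusted p = 0.017). SEMA6B, the most abundant of class 6, fell by 0.72 (interval -1.23 to -0.21, adjusted p = 0.045, or 0.0504 with each library centred on its median), with 2.31, 1.98 and 2.37 in VC and 1.86, 1.23 and 1.41 in KO. SEMA4D, the osteoclast-derived ligand of PLXNB1, fell by 0.77 (interval -1.20 to -0.35, adjusted p = 0.026), from 0.50 ± 0.096 to -0.28 ± 0.30 (SD, n = 3).

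Not called in these classes were SEMA4C, which had the highest VC mean of class 4, with 2.65, 2.47 and 2.59 in VC and 2.66, 2.71 and 2.62 in KO, a difference of 0.093 (interval -0.10 to 0.29). SEMA4G differed by 0.68 (interval 0.077 to 1.29, adjusted p = 0.079), and 22.3% of its exonic bases are shared with MRPL43 on the opposite strand. SEMA4A, SEMA4F, SEMA5B, SEMA6A and SEMA6C had differences between -0.28 and 1.44 with intervals that included 0, and SEMA4A and SEMA5B lacked values in some libraries. The single class 7 gene, SEMA7A, a membrane-anchored ligand of PLXNC1 and of integrins, was abundant and rose by 0.33 (interval 0.14 to 0.51, adjusted p = 0.028), with 4.68, 4.56 and 4.72 in VC and 4.95, 5.02 and 4.97 in KO.

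Of the 9 plexins, the receptors of semaphorins, 2 rose and 1 fell (33.3% called, beside 32.9% of all genes). PLXNB3 had -2.74, -2.94 and -2.62 in VC and -2.02, -1.60 and -1.61 in KO, and it rose by 1.03 (interval 0.63 to 1.42, adjusted p = 0.013), a call kept in 5 of 6 fits with 1 library left out. On the same strand 20.4% of its exonic bases are shared with SRPK3, so its signal is uncertain to that extent. PLXNA4 rose by 0.61 (interval 0.23 to 0.99, adjusted p = 0.035, or 0.066 with trend and robust moderation), from -2.51 ± 0.13 to -1.90 ± 0.25 (SD, n = 3). PLXNC1, the receptor of SEMA7A, fell by 0.72 (interval -1.15 to -0.29, adjusted p = 0.031, or 0.054 with trend and robust moderation), from -2.20 ± 0.12 to -2.92 ± 0.30 (SD, n = 3).

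The most abundant plexins were among those not called. PLXNA1 had 4.16, 3.94 and 4.18 in VC and 3.99, 3.98 and 3.97 in KO, a difference of -0.11 (interval -0.34 to 0.12). PLXNA2 had 2.99, 2.87 and 2.99 in VC and 3.21, 3.30 and 3.12 in KO, separate groups with a difference of 0.26 (interval 0.051 to 0.46, adjusted p = 0.062, or 0.029 with each library centred on its median). PLXNB2, the receptor of SEMA4C, differed by 0.20 (interval -0.073 to 0.48), and PLXNA3, PLXNB1 and PLXND1 differed by 0.23, 0.10 and -0.038.

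**Figure D3:**
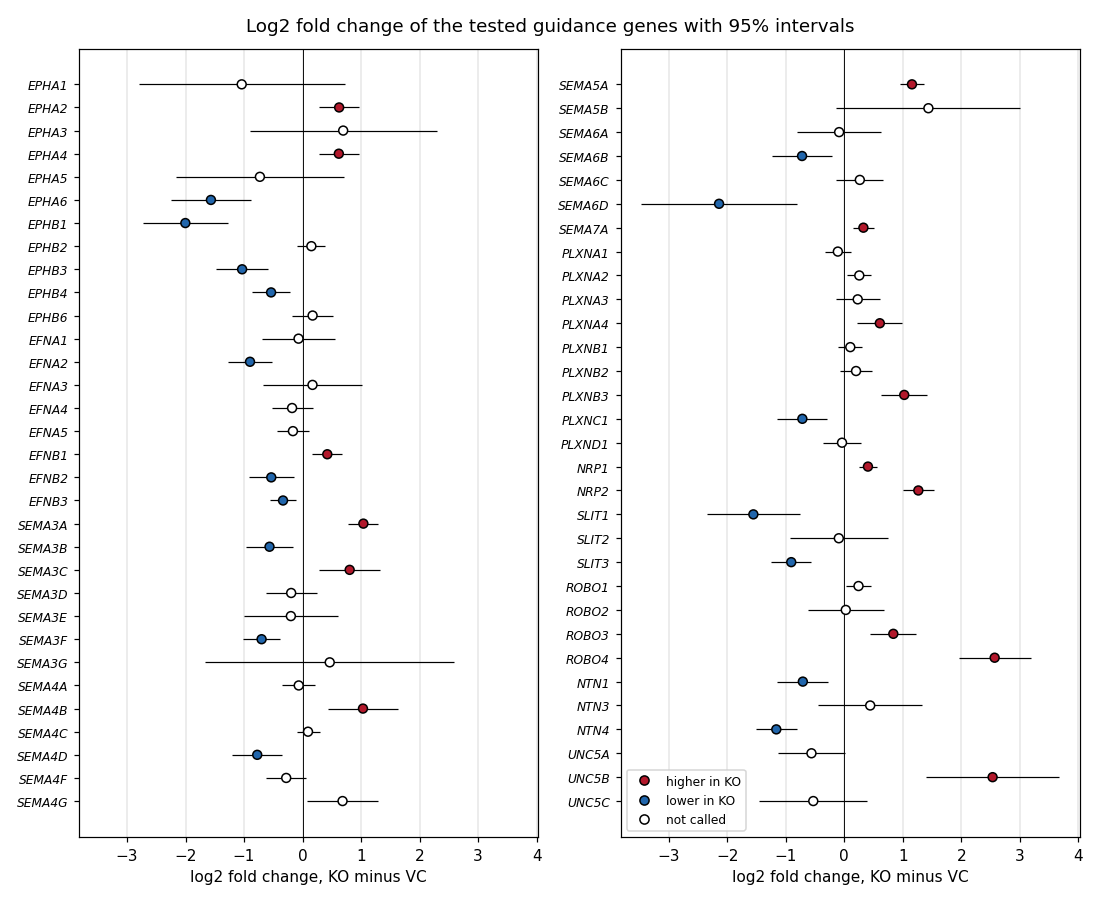
Log2 fold change, KO minus VC (x axis), with the 95% interval of limma's model for each of the 63 tested guidance genes, ordered by family, in red where called higher in KO, blue where called lower and white where not called. The intervals of SEMA6D (-3.47 to -0.81) and UNC5B (1.40 to 3.67) are among the widest of the called genes, and that of NRP1 (0.25 to 0.56) among the narrowest.

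Eph receptors fall into class A, which mostly read ephrin-A ligands, and class B, which mostly read ephrin-B ligands. Of 6 class A receptors tested, 2 rose and 1 fell, and of 5 class B receptors, 0 rose and 3 fell. Over all genes 13.1% rose and 19.8% fell, and the difference between the classes was not tested. EPHA2, a receptor of ephrin-A1 that is common in tumours, was the most abundant guidance gene, with 5.01, 4.83 and 5.00 in VC and 5.32, 5.74 and 5.66 in KO. It rose by 0.62 (interval 0.28 to 0.97, adjusted p = 0.026), and without KO replicate 3 the adjusted p was 0.079. EPHA4, which binds ephrins of both classes, had 1.28, 1.44 and 1.45 in VC and 1.75, 2.12 and 2.15 in KO and rose by the same 0.62 (interval 0.28 to 0.96, adjusted p = 0.027). KO replicate 1 was the lowest KO library for both genes and still above every VC library.

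EPHB1, a receptor of ephrin-B ligands, had the largest fall among the receptors. Its signals were 0.57, 0.28 and 0.51 in VC and -0.98, -1.61 and -2.06 in KO, so that every VC library was above 0 and every KO library below. It fell by 2.0 (interval -2.73 to -1.28, adjusted p = 0.012), a call kept in 5 of 6 fits with 1 library left out. EPHA6, an ephrin-A receptor at low level, had -4.57, -5.05 and -4.76 in VC and -6.00, -6.89 and -6.19 in KO and fell by 1.57 (interval -2.25 to -0.89, adjusted p = 0.016). With 1 added to the linear signal its adjusted p was 0.24 and its difference -0.034.

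EPHB3 had -1.31, -1.54 and -1.41 in VC and -2.26, -2.82 and -2.28 in KO and fell by 1.03 (interval -1.48 to -0.59, adjusted p = 0.016). EPHB4, the ephrin-B2 receptor that marks veins and also acts in osteoblasts, had the highest VC mean of its class, with 3.46, 3.29 and 3.48 in VC and 2.99, 2.64 and 2.98 in KO. It fell by 0.54 (interval -0.86 to -0.22, adjusted p = 0.031), and its groups did not overlap. EPHB2 differed by 0.15 (interval -0.087 to 0.39) and EPHB6, which lacks kinase activity, by 0.17 (interval -0.19 to 0.53). EPHA1, EPHA3 and EPHA5 were low and scattered, with differences of -1.04, 0.69 and -0.73 and intervals that included 0.

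Ephrin-B genes, whose products cross the membrane, were all called, although with each library centred on its median the adjusted p was 0.060 for EFNB2 and 0.069 for EFNB3. EFNB1, abundant and active in skull and bone formation, had 4.63, 4.47 and 4.61 in VC and 4.84, 5.12 and 5.01 in KO and rose by 0.42 (interval 0.16 to 0.68, adjusted p = 0.033). EFNB2, the ligand of EPHB4, had 1.37, 1.38 and 1.42 in VC and 1.17, 0.61 and 0.79 in KO and fell by 0.53 (interval -0.92 to -0.15, adjusted p = 0.049). EFNB3 fell by 0.33 (interval -0.55 to -0.11, adjusted p = 0.039), from 2.71 ± 0.073 to 2.38 ± 0.11 (SD, n = 3). Of the exonic bases of EFNB2, 26.2% face an antisense transcript that is not in the table. Each of the 3 calls was kept in 1 of 6 fits with 1 library left out.

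Ephrin-A genes, whose products are held by a lipid anchor, gave 1 call in 5, while 32.9% of all genes were called. Their difference from the ephrin-B genes was not tested. EFNA2 had -0.65, -1.0 and -0.67 in VC and -1.44, -1.79 and -1.78 in KO and fell by 0.90 (interval -1.28 to -0.52, adjusted p = 0.015). EFNA5, the most abundant, had 0.97, 1.05 and 0.88 in VC and 0.97, 0.66 and 0.77 in KO, overlapping groups with a difference of -0.16 (interval -0.43 to 0.11). EFNA1, EFNA3 and EFNA4 differed by -0.069, 0.17 and -0.18 with intervals that included 0, and EFNA3 shares 44.7% of its exonic bases with a transcript of the same strand that is not in the table.

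**Figure D4:**
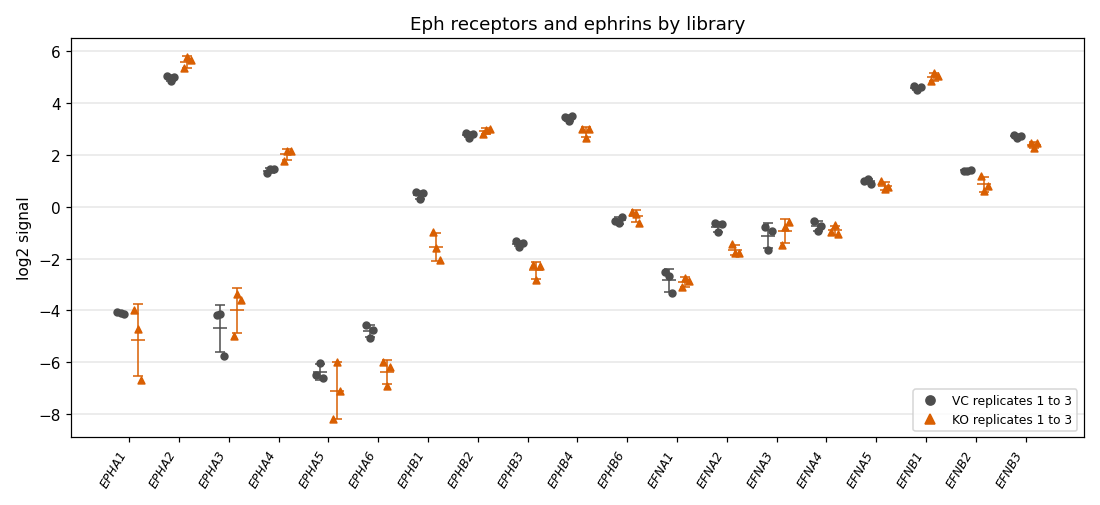
Log2 signal of each library (y axis) for the Eph receptors and ephrins tested, with VC replicates as grey circles, KO replicates as orange triangles and bars for the group mean ± SD. EPHA2 and EFNB1 are the highest and lie higher in KO, while EPHB1, EPHB3 and EPHB4 lie lower in KO with groups that do not overlap.

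Across the guidance genes called, KO replicate 1 was the KO library nearest to VC for 10 of the 15 that rose and for 12 of the 17 that fell. The nearest library was not counted over all genes. Without KO replicate 1, 47.0% of all genes were called, beside 32.9% with it. Levels between genes are comparable only per length, and these signals scaled roughly so: over 1264 genes with a value in 1 library, the log2 signal changed by -0.854 for each doubling of exonic length. On that scale the highest VC means were those of EPHA2 (4.95), NRP1 (4.81), SEMA7A (4.65), EFNB1 (4.57) and PLXNA1 (4.09), and of the neighbours in this order only SEMA7A and EFNB1 overlapped between VC libraries, while those of EPHA2 and NRP1 nearly touched. At the other end, EPHA10 had no value, EPHA7 and UNC5D had 1 value each, and EPHA8 had -8.37 and -8.47 in 2 VC libraries and no value in KO. These 4 genes and NTN5 were not tested.

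Partners and effectors were taken from a list of 23 co-receptors and extra ligands and 54 proteins that carry the signals to the cytoskeleton. Of 20 partners tested, 5 rose and 3 fell (40.0% called), and of 53 effectors, 8 rose and 17 fell (47.2% called), beside 32.9% of all genes. NRCAM, an adhesion molecule that joins neuropilin complexes, had -0.21, -0.43 and -0.15 in VC and 2.07, 2.12 and 1.85 in KO. It rose by 2.28, or 4.84-fold (interval 1.98 to 2.57, adjusted p = 0.0047), and kept the call in all 6 fits with 1 library left out.

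DCC and NEO1, netrin receptors outside the UNC5 family, rose, and DSCAM, another, had no value in any library. DCC stood low, at -5.66, -5.73 and -5.73 in VC and -4.80, -4.13 and -4.35 in KO, and rose by 1.28 (interval 0.82 to 1.74, adjusted p = 0.012). For DCC the call was lost when 1 was added to the linear signal, with a difference of 0.039 and an adjusted p of 0.19. NEO1, neogenin, had 3.57, 3.51 and 3.58 in VC and 4.03, 4.04 and 4.04 in KO and rose by 0.48 (interval 0.32 to 0.64, adjusted p = 0.010). FLT1, a VEGF receptor, rose by 0.48 and ITGB1, the integrin beta 1 chain, by 0.23. Among partners that fell, FLRT2, a ligand of UNC5 receptors, fell by 1.79 (interval -2.55 to -1.04, adjusted p = 0.015), L1CAM, which joins NRP1, by 1.21 (interval -1.51 to -0.91, adjusted p = 0.0079), and NTNG1, a membrane-anchored relative of the netrins, by 0.86.

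RND1, a small GTPase bound by plexins, led the effectors, with -2.33, -2.44 and -2.69 in VC and -0.15, -0.23 and -0.52 in KO. It rose by 2.19, or 4.56-fold (interval 1.82 to 2.55, adjusted p = 0.0057). Also higher were NGEF, the exchange factor ephexin, by 0.99, the semaphorin effectors MICAL1 by 0.95 and MICAL2 by 0.59, the kinases FYN by 0.92 and PAK1 by 0.42, RGS3 by 0.59 and VASP by 0.57. DPYSL5, a collapsin response mediator, fell most, by 1.57 (interval -2.26 to -0.87, adjusted p = 0.017), and CHN2, a RAC GTPase-activating protein, fell by 1.21. The others that fell did so by between 0.37 and 0.63: ROCK2, GSK3B, VAV2, EVL, ITSN1, TIAM1, SRGAP1, CFL1, DPYSL2, SRGAP2, PAK2, ENAH, ARHGEF11, RAC1 and SRC. With each library centred on its median the adjusted p of both SRC and SRGAP2 was 0.071.

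**Figure D5:**
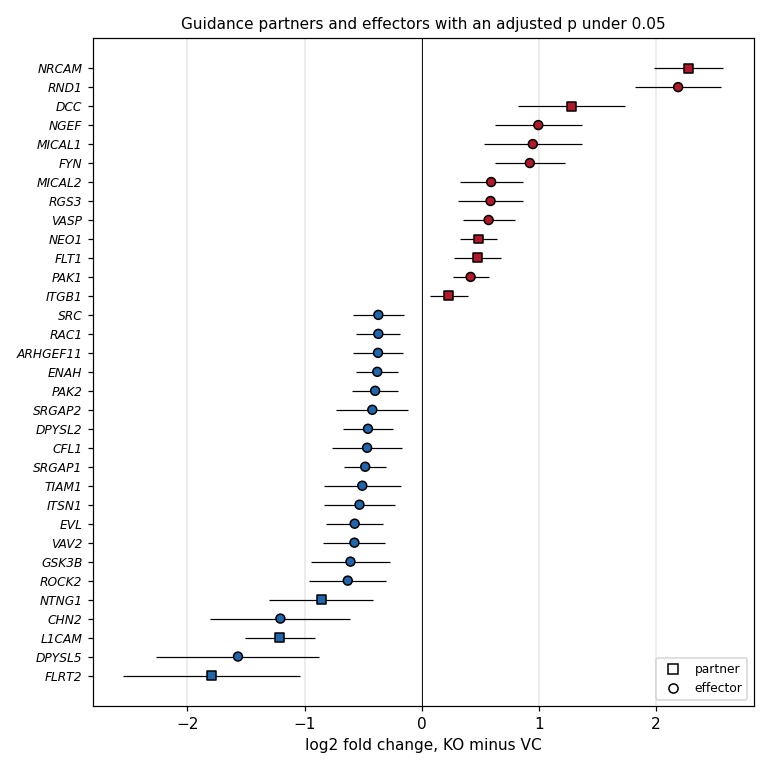
Log2 fold change, KO minus VC (x axis), with 95% intervals for the 33 called partners (squares) and effectors (circles), red where higher in KO and blue where lower. NRCAM (2.28) and RND1 (2.19) lie at the top, and FLRT2 (-1.79) and DPYSL5 (-1.57) at the bottom.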

How the data were processed

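RNA sequencing of 143B cells gave 3 VC and 3 KO libraries, grouped by their labels. The authors deposited log2 signals for 54308 genes. The submitters' processing notes name CASAVA, STAR, Partek and GRCh38.p13, and the methods name CLC and Partek; versions, the annotation, the linear unit and whether counting used strand are not given in the sources used here, and depth is unknown. The labels name a stranded mRNA kit. The library medians of the values lay between 0.6187 and 0.6188, so the libraries had been brought to 1 level before deposit, and every difference is relative to the other genes. Signals were fitted in R 4.3.3 with limma 3.58.1 (empirical Bayes, no trend, two-sided p, Benjamini-Hochberg), without imputing empty cells, and the code was tested on simulated data. Every guidance gene is accounted for, with full values for those with an adjusted p under 0.05 and the highest VC mean of each subfamily, as are partners and effectors with an adjusted p under 0.05. The members and lists were chosen with earlier results of these data known. Exon overlaps came from GENCODE and promoters from RefSeq. Alternatives changed the filter, the centring, the added signal, the moderation, the replicate block and the libraries.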

Additional observations from a re-analysis of the deposited data

How the results depend on the processing

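Of the 63 guidance genes tested, 32 were called, and between 30 and 32 were called with values required in all 6 libraries, with each library centred on its median, with 1 added to the linear signal and with trend and robust moderation. The share of all genes called was 32.9% in the main fit, 38.3% with values in all 6 libraries and 32.15% with centring. It was 40.6% with 1 added and 41.0% with trend and robust moderation, where 49.2% of guidance genes were called in either fit. Among the 22 guidance genes left in the upper 50% of mean signal the count was 17 (77.3%, 12 higher and 5 lower), beside 59.1% of all genes. Without variance moderation it was 17 (27.0%, 9 higher and 8 lower), beside 23.0% of all genes. That fit called 2442 of all genes lower. Leaving out 1 library gave between 6 (without VC replicate 3) and 31 (without KO replicate 1) called guidance genes. These were 9.68% and 50.8% of those tested, beside 6.57% and 47.0% of all genes. There were 7 without VC replicate 1 (11.3%, beside 7.54% of all genes) and 10 without KO replicate 3 (16.1%, beside 10.9%). Without VC replicate 2 there were 14 (22.95%, beside 13.1%), and without KO replicate 2 there were 18 (29.03%, beside 23.6%). Across these fits 4 to 15 were higher and 1 to 16 lower. Over all genes these fits called between 1223 and 8669, with 654 to 2940 higher and 569 to 5729 lower. Among partners and effectors they called between 6 and 41 (8.33% to 56.2% of those tested, beside 6.57% to 47.0% of all genes). The median log2 fold change of guidance genes was 0.25 in the upper 50% of signal, 0.10 without VC replicate 1, and between -0.10 and 0.10 when 1 library was left out. Centring each library on its median over the tested genes turned the split of all genes from 2526 higher and 3828 lower to 3141 and 3066; PLXNA2 and ROBO1 were then called higher, and SEMA3B, EFNB2, EFNB3 and SEMA6B lost their calls. Adding 1 to the linear signal moved the median of all genes from -0.13 to -0.023. The causes of these changes were not tested.

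The replicate numbers did not pair the libraries: deviations from the group means correlated at 0.023, 0.005 and -0.007 for libraries with the same number, and not every library correlated best with its own number. With the replicate number as a block, 10 guidance genes were called (15.9%, 5 higher and 5 lower). Over all genes 1533 were called (7.94%, 594 higher and 939 lower), and of partners and effectors 5 (6.85%). Single genes near the bottom of the signal range are those that the unknown depth limits most.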
